A study of Homo sapiens with 18 samples.

Results

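The D cyclins, the kinases they activate and a group of CDK inhibitors were followed across the 9 conditions of this study. The 10 genes are the D cyclins CCND1, CCND2 and CCND3, the kinases CDK4 and CDK6, the inhibitors CDKN1B and CDKN1C of the CIP/KIP family, the inhibitors CDKN2C and CDKN2D of the INK4 family, and CDKN3. They were taken by symbol from the 60603 genes of both count tables, and all 10 were found in each table. D cyclins bind and activate CDK4 and CDK6, and these complexes phosphorylate the retinoblastoma protein, which releases E2F transcription factors and lets a cell pass from G1 into S phase. INK4 proteins bind CDK4 and CDK6 and block the binding of cyclin D, and CIP/KIP proteins bind cyclin-CDK complexes, those of CDK2 above all. CDKN3 encodes a phosphatase that acts on CDK2 and belongs to neither of these inhibitor families. CCND1 is a well known oncogene of breast cancer, and drugs against CDK4 and CDK6 are in clinical use there.

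Poly(A) RNA was sequenced from MDA-MB-231, a breast cancer cell line of the basal subtype, in 9 groups of 2 libraries. Doxorubicin, a drug that damages DNA, was given at 0.6 µM in all treated groups. In the transient table, 2 libraries were from control cells, 2 from cells with 48 h of doxorubicin, and 2 are labelled as FLAG-ZMYND8 transfection followed by 48 h of doxorubicin, which began 24 h after transfection. The labels call the control cells untreated, whereas the protocol names an empty vector and a vehicle. In the inducible table, cells carried GFP or ZMYND8 cDNA in the lentiviral vector pInducer20 under neomycin/G418 selection. Expression was induced with 250 ng/mL doxycycline, which started 4 h before doxorubicin and stayed on, and the doxorubicin times were 0, 6 and 48 h. All 12 libraries are labelled as overexpressing their construct, but the sources do not say how long the 0 h cells had doxycycline, so that hours of doxorubicin and hours of doxycycline cannot be told apart. The sources name 1 GFP line and 1 ZMYND8 line, so that overexpressed ZMYND8 cannot be told apart from anything else in which both lines differ. ZMYND8 is a zinc finger protein that reads chromatin, and the study asked what its overexpression does to the response to doxorubicin.

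The depth was 18300628 to 23724398 counts in the 12 inducible libraries and 5729294 to 24713822 in the 6 transient libraries, where the second doxorubicin library was 4.31 times as deep as the first. ZMYND8 itself was at 922 and 927 CPM (counts scaled to library size with TMM factors) in ZMYND8 cells against 209 and 208 CPM in GFP cells at 0 h, which is 2.15 ± 0.0458 higher on the log2 scale (SE, adjusted p = 1.2e-23). The difference was 3.16 ± 0.0491 at 6 h and 2.79 ± 0.047 at 48 h. Means of ZMYND8 were then 96.6 and 140 CPM in GFP cells and 864 and 963 CPM in ZMYND8 cells. The transient pair labelled with ZMYND8 held 160 and 125 CPM of it, against 182 and 123 CPM with doxorubicin alone and 219 and 199 CPM in control cells. These 2 libraries do not show the raised transcript that their label names, and are called the labelled ZMYND8 libraries here. The second of them and the second with doxorubicin alone were nearly alike, with a chi-square per degree of freedom of 1.39 against 9.71 to 55.6 for the other 14 pairs of transient libraries. Summed markers of the line (VIM, CD44, KRT8, KRT18 and EGFR) stood at 3803 to 7277 CPM per library. Of the luminal markers, ERBB2 and GATA3 were present and ESR1 and PGR were below 1 CPM in each group. The 7 markers of leukocytes, stroma and endothelium summed to 9.76 to 45.4 CPM in the inducible and 38.8 to 67.8 CPM in the transient libraries. Among the 6 inducible groups CD3E was at 0 in 3 and CDH5 in 2, while COL1A1 held 6.67 to 21.8 CPM.

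All 10 genes of the inducible table passed the filter on low counts. Of the transient counts 9 of 10 genes passed, and CCND2 did not, with 1 to 5 counts per library. Levels of different genes are compared here only per exon length, as RPKM. This length covers all annotated exons of a gene (5802 bases for CCND3, 1503 for CDKN2D), whether or not the cells use them all. At 0 h in GFP cells the order was CCND1 (115 ± 1.51 RPKM, SD, n = 2), CDK4 (51.4 ± 2.84), CDKN2D (33.9 ± 4.67), CDKN3 (33.3 ± 4.26), CCND3 (32.7 ± 0.125), CDKN1B (23.7 ± 0.977), CDKN2C (19.3 ± 0.368), CDK6 (9.77 ± 0.368), CDKN1C (1.09 ± 0.0894) and CCND2 (0.743 ± 0.000393). CCND1 was therefore the leading D cyclin and CDK4 the leading D cyclin kinase by RPKM. CDKN2D, CDKN3 and CCND3 lay within the SD of CDKN2D and of CDKN3, and differences between genes were not tested. In ZMYND8 cells CCND1 led again with 141 ± 4.93 RPKM, CCND3 lay at 23.2 ± 0.0465 RPKM beside CDKN1B at 23.5 ± 0.275 RPKM, and CCND2 was last with 0.121 ± 0.0277 RPKM. In transient control cells CCND1 was at 127 ± 43.9 RPKM and CDK4 at 57.8 ± 12.1 RPKM, and CCND2 was last with 0.0387 ± 0.0205 RPKM.

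**Figure D1:**
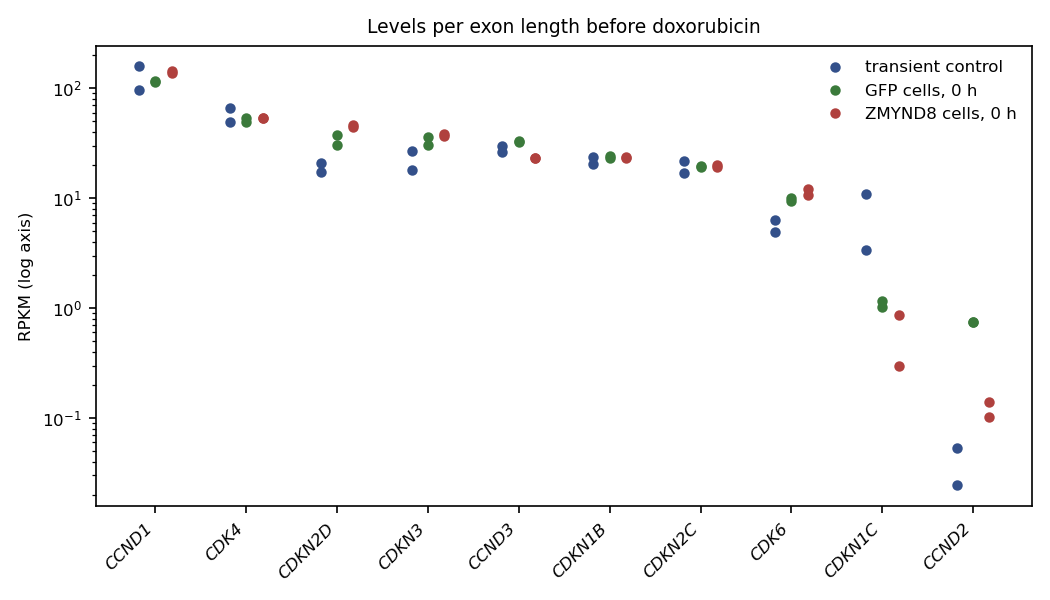
Levels per exon length (RPKM, log axis) of the 10 genes before doxorubicin, each point being 1 library of the transient control cells, the GFP cells or the ZMYND8 cells, ordered by the mean in GFP cells at 0 h. CCND1 is the highest and CCND2 the lowest gene in each of the 3 groups, and both tables were counted and scaled separately.

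Most of these 10 genes changed with doxorubicin in the inducible cells, as did over 40% of all genes at 6 h and over 60% at 48 h. A gene was called at a Benjamini-Hochberg adjusted p of at most 0.05 over all 18801 genes tested, with edgeR's quasi-likelihood test. At 6 h against 0 h, 8 of 10 members were called in GFP cells (2 higher, 6 lower) beside 47.9% of all genes (22.1% higher, 25.8% lower), and 6 of 10 in ZMYND8 cells (4 higher, 2 lower) beside 40.8% (21.8% higher, 19% lower). At 48 h, 6 of 10 were called in each line (3 higher, 3 lower) beside 64.2% of all genes in GFP cells (32.4% higher, 31.8% lower) and 62.3% in ZMYND8 cells (31.6% higher, 30.8% lower). Libraries of both times did not overlap for 70.7% and 81.5% of all genes at 6 and 48 h in GFP cells, and for 65.5% and 80.3% in ZMYND8 cells. The share of members at 48 h is thus close to that of all genes, and the data below bear on the size and direction of each gene's change rather than on the number called. The median log2 fold change of the members was -0.24 and -0.05 at 6 h and -0.15 and -0.01 at 48 h in GFP and ZMYND8 cells, against medians of -0.05 to 0.05 over all genes. These are bulk libraries, so that fewer cells with a transcript and less of it per cell cannot be told apart.

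**Figure D2:**
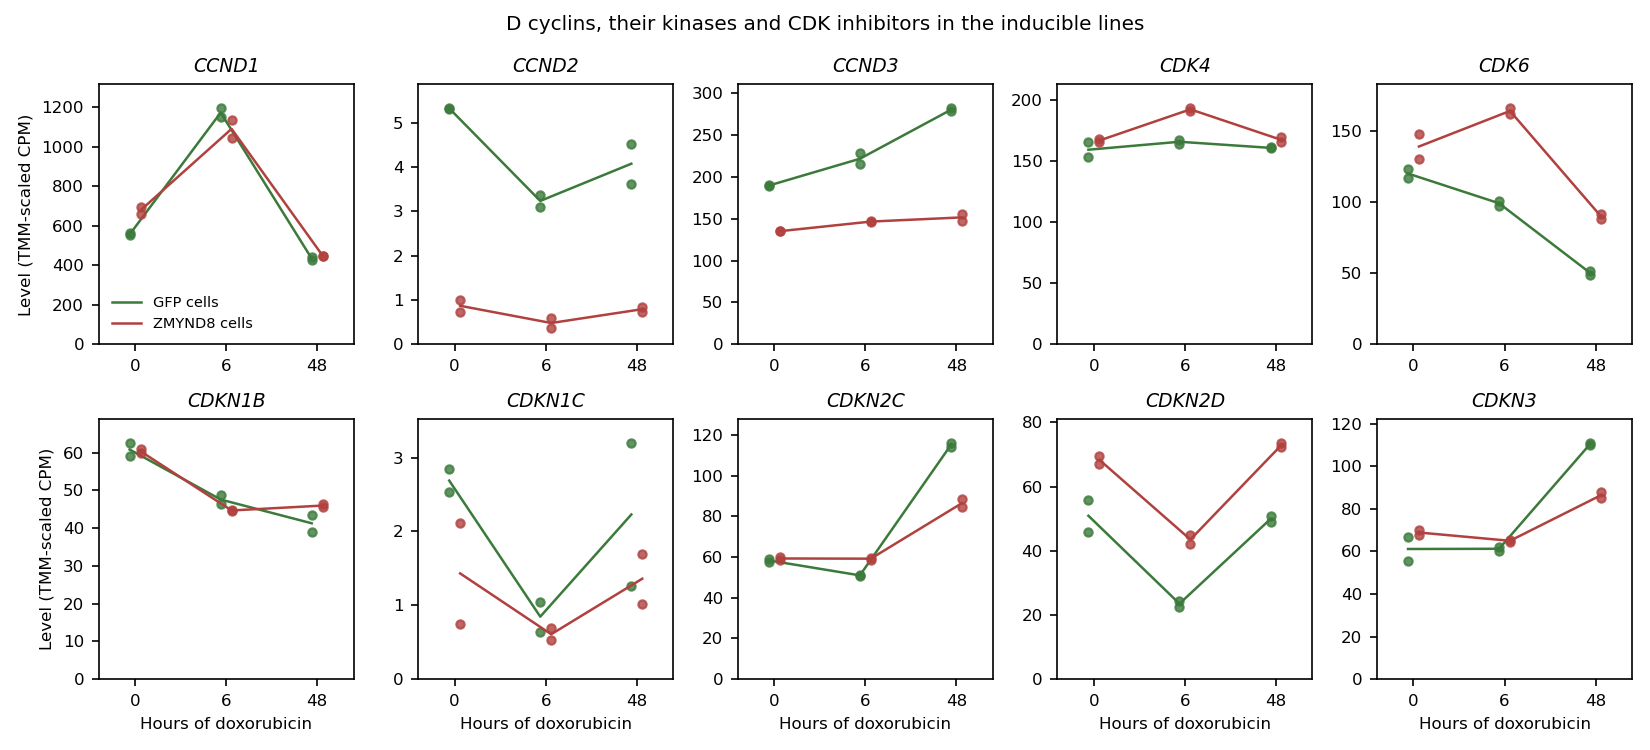
Levels (TMM-scaled CPM, linear axes from 0) of the 10 genes at 0, 6 and 48 h of doxorubicin in GFP cells and ZMYND8 cells. Points are libraries, 2 per group, and lines join the group means, with CCND1 peaking at 6 h in both lines and CDKN2C and CDKN3 highest at 48 h.

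CCND1, the cyclin whose gene lies on chromosome 11 (ENSG00000110092.3, 69641087 to 69654474, + strand, hg38), rose at 6 h and was below its starting level at 48 h in both lines. In GFP cells it was at 561 and 551 CPM at 0 h, 1196 and 1150 CPM at 6 h, and 440 and 428 CPM at 48 h. The ZMYND8 cells held 662 and 695 CPM at 0 h, 1047 and 1135 CPM at 6 h, and 448 and 449 CPM at 48 h. The 3 times did not overlap in either line. The rise at 6 h was 2.11-fold in GFP cells (log2 fold change 1.08 ± 0.0414, SE, adjusted p = 1.8e-17) and 1.61-fold in ZMYND8 cells (0.68 ± 0.041, adjusted p = 3.4e-13). At 48 h the log2 fold change was -0.36 ± 0.0416 (adjusted p = 2.2e-08) and -0.60 ± 0.0414 (adjusted p = 1.1e-12). CCND1 was thus higher in ZMYND8 cells before doxorubicin (log2 fold change 0.29 ± 0.0413, adjusted p = 1e-06), and the difference was not called at 48 h (0.05, 95% interval -0.04 to 0.13, adjusted p = 0.33). At 6 h it was lower in ZMYND8 cells by -0.10 on the log2 scale (adjusted p = 0.031), a call that was lost without the first GFP library (-0.08, adjusted p = 0.22) or the first ZMYND8 library at that time (-0.05, adjusted p = 0.41).

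CCND3, on chromosome 6 (ENSG00000112576.12, 41934933 to 42050357, - strand), rose with the duration of doxorubicin in GFP cells. It was at 190 and 189 CPM at 0 h, 228 and 215 CPM at 6 h, and 282 and 278 CPM at 48 h, with no overlap between times. The values in ZMYND8 cells were 135 and 135 CPM, 147 and 146 CPM, and 147 and 156 CPM. Each ZMYND8 library lay below each GFP library. The log2 fold change at 48 h was 0.56 ± 0.0412 in GFP cells (adjusted p = 3e-12) and 0.17 ± 0.0432 in ZMYND8 cells (adjusted p = 0.0013, and 0.07 without the second ZMYND8 library at 48 h). At 6 h it was 0.22 ± 0.042 (adjusted p = 5.9e-05) and 0.12 ± 0.0438 (adjusted p = 0.026). The last of these was lost when any 1 of its 4 libraries was left out (adjusted p = 0.059 to 0.089), and with total-count scaling it was 0.04 (adjusted p = 0.5). Between the lines CCND3 was lower in ZMYND8 cells by -0.49 ± 0.0432 at 0 h, -0.60 ± 0.0427 at 6 h and -0.88 ± 0.0413 at 48 h on the log2 scale (adjusted p = 1.3e-10, 3e-12 and 3.5e-16).

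CCND2, on chromosome 12 (ENSG00000118971.8, 4273762 to 4305353, + strand), was expressed at a low level in GFP cells and close to absent in ZMYND8 cells. In GFP cells it was at 5.32 and 5.33 CPM at 0 h, 3.10 and 3.37 CPM at 6 h, and 4.53 and 3.62 CPM at 48 h. ZMYND8 cells had 0.726 and 1.01 CPM, 0.591 and 0.368 CPM, and 0.732 and 0.851 CPM, which are 7 to 23 counts per library. Transient control cells, counted and scaled separately, held 0.382 and 0.174 CPM (2 and 1 counts), which is also below GFP cells. The difference between the lines was the largest among the members, with log2 fold changes of -2.59 ± 0.27 at 0 h, -2.73 ± 0.32 at 6 h and -2.36 ± 0.269 at 48 h (adjusted p = 3.8e-09, 3.7e-08 and 2e-08). With doxorubicin it fell at 6 h in GFP cells (log2 fold change -0.72 ± 0.226, adjusted p = 0.0098), a call that was lost without the first GFP library at 6 h (-0.66, adjusted p = 0.071) and with DESeq2 (-0.71, adjusted p = 0.058). In ZMYND8 cells the value at 6 h was -0.86 (95% interval -1.66 to -0.06, adjusted p = 0.082). Of the exon bases of CCND2, 13.9% are shared with an unnamed gene on the same strand, where reads may have been left out of the count.

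CDK4, on chromosome 12 (ENSG00000135446.17, 57747727 to 57756013, - strand), varied least among the members, between 153 and 193 CPM in the 12 inducible libraries, a range of 1.26-fold. It was at 165 and 153 CPM at 0 h, 164 and 167 CPM at 6 h, and 161 and 160 CPM at 48 h in GFP cells. In ZMYND8 cells the values were 168 and 165 CPM, 193 and 191 CPM, and 165 and 169 CPM. The ZMYND8 libraries at 6 h were the highest. There CDK4 rose by a log2 fold change of 0.20 ± 0.0418 against 0 h (adjusted p = 0.00023) and was 0.21 ± 0.042 above GFP cells (adjusted p = 8.5e-05). Between the lines at 0 h it was 0.07 (95% interval -0.02 to 0.15), which was called without the first GFP library (0.12, adjusted p = 0.048). At 48 h the log2 fold change was 0.01 (95% interval -0.07 to 0.10) in GFP cells and 0 (-0.08 to 0.09) in ZMYND8 cells.

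CDK6, on chromosome 7 (ENSG00000105810.9, 92604921 to 92836594, - strand), fell in GFP cells at both times and rose before it fell in ZMYND8 cells. In GFP cells it was at 123 and 117 CPM at 0 h, 97.2 and 101 CPM at 6 h, and 48.5 and 51.8 CPM at 48 h. The ZMYND8 cells held 148 and 130 CPM at 0 h, 162 and 166 CPM at 6 h, and 88.2 and 91.5 CPM at 48 h. Neither line had an overlap between times. The log2 fold change at 6 h was -0.28 ± 0.0543 in GFP cells (adjusted p = 0.00011) and 0.25 ± 0.0512 in ZMYND8 cells (adjusted p = 0.00028), so that the directions were opposite. At 48 h it was -1.26 ± 0.0573 (adjusted p = 1.3e-16) and -0.62 ± 0.0528 (adjusted p = 6.6e-11). CDK6 was higher in ZMYND8 cells by 0.21 ± 0.0525 at 0 h (adjusted p = 0.0012, and 0.056 without the first ZMYND8 library at 0 h), 0.73 ± 0.053 at 6 h (adjusted p = 3.7e-12) and 0.84 ± 0.0576 at 48 h (adjusted p = 1e-12) on the log2 scale.

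CDKN1B, the CIP/KIP inhibitor on chromosome 12 (ENSG00000111276.11, 12715058 to 12722369, + strand), fell with doxorubicin in both lines. It was at 59.1 and 62.6 CPM at 0 h, 48.8 and 46.4 CPM at 6 h, and 43.5 and 39.1 CPM at 48 h in GFP cells. The values in ZMYND8 cells were 60.9 and 59.9 CPM, 44.8 and 44.6 CPM, and 45.5 and 46.5 CPM. All libraries with doxorubicin lay below all libraries without. The log2 fold changes were -0.35 ± 0.0596 and -0.56 ± 0.0591 at 6 and 48 h in GFP cells (adjusted p = 1.5e-05 and 4.1e-09) and -0.43 ± 0.0595 and -0.39 ± 0.0579 in ZMYND8 cells (adjusted p = 1.1e-06 and 1.5e-06). Between the lines it was called at 48 h alone (0.16 ± 0.0595, adjusted p = 0.026), and this call was lost with DESeq2 (0.15, adjusted p = 0.11), without the second GFP library (0.08, adjusted p = 0.36) or either ZMYND8 library at that time (adjusted p = 0.051 and 0.13).

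CDKN1C, on chromosome 11 (ENSG00000129757.13, 2883213 to 2885773, - strand), also of the CIP/KIP family, was scarce in the inducible table, with 10 to 72 counts per library. In GFP cells it was at 2.53 and 2.85 CPM at 0 h, 1.05 and 0.642 CPM at 6 h, and 3.20 and 1.26 CPM at 48 h. ZMYND8 cells had 2.12 and 0.744 CPM, 0.690 and 0.525 CPM, and 1.02 and 1.70 CPM. Replicates differed by more than 2-fold in 2 of 6 groups, and only the fall at 6 h in GFP cells (log2 fold change -1.66 ± 0.445, adjusted p = 0.0028) and the difference between the lines at 0 h were called. The latter (-0.96 ± 0.409, adjusted p = 0.047) was lost without either GFP library or without the second ZMYND8 library at 0 h (adjusted p = 0.079 to 0.54), and with DESeq2 (-0.92, adjusted p = 0.13). Calls were also gained by leaving out 1 library, namely for the fall in ZMYND8 cells at 6 h without their second 0 h library (-1.79, adjusted p = 0.0045), for GFP cells at 48 h without their first library of that time (-1.10, adjusted p = 0.043) and between the lines at 48 h without the second GFP library (-1.23, adjusted p = 0.012).

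CDKN2C, the INK4 inhibitor on chromosome 1 (ENSG00000123080.12, 50960745 to 50974634, + strand), rose at 48 h, and more so in GFP cells. It was at 59.1 and 57.5 CPM at 0 h, 51.1 and 50.8 CPM at 6 h, and 116 and 114 CPM at 48 h in GFP cells. The ZMYND8 cells held 58.5 and 60.0 CPM, 58.6 and 59.7 CPM, and 88.4 and 84.4 CPM. The 48 h libraries stood clear of all others in both lines. At 48 h the rise on the log2 scale was 0.98 ± 0.0476 in GFP cells (adjusted p = 5.4e-16) and 0.54 ± 0.0482 in ZMYND8 cells (adjusted p = 1.6e-10). At 0 h the lines differed by 0.02 (95% interval -0.08 to 0.13) on the log2 scale. At 6 h CDKN2C was higher in ZMYND8 cells by 0.21 ± 0.0525 (adjusted p = 0.0011), and at 48 h it was lower in ZMYND8 cells by -0.41 ± 0.0446 (adjusted p = 8.9e-09). At 6 h it fell slightly in GFP cells (-0.19 ± 0.0527, adjusted p = 0.0031, and 0.068 with no filter on low counts) and stood at 0 (95% interval -0.11 to 0.10) in ZMYND8 cells. The difference of both changes at 6 h was not called (0.19, adjusted p = 0.089).

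CDKN3, the phosphatase gene on chromosome 14 (ENSG00000100526.20, 54396849 to 54420218, + strand), followed a like course. It was at 66.7 and 55.6 CPM at 0 h, 62.2 and 60.3 CPM at 6 h, and 111 and 110 CPM at 48 h in GFP cells. The values in ZMYND8 cells were 67.6 and 70.2 CPM, 65.5 and 64.5 CPM, and 87.8 and 85.1 CPM. Again the 48 h libraries were the highest of each line. At 48 h the rise on the log2 scale was 0.86 ± 0.0579 in GFP cells (adjusted p = 5.3e-13) and 0.33 ± 0.0577 in ZMYND8 cells (adjusted p = 2.2e-05), and the 48 h level was lower in ZMYND8 cells by -0.36 ± 0.0545 (adjusted p = 2.2e-06). At 0 h CDKN3 was higher in ZMYND8 cells (0.17 ± 0.0611, adjusted p = 0.017), a call lost without the second GFP library (0.05, adjusted p = 0.56) or the second ZMYND8 library (0.14, adjusted p = 0.12). Over the 12 inducible libraries, log2 CPM of CDKN2C and CDKN3 had a Pearson correlation of 0.97, the highest of any pair of members. This is a description of 6 groups in which the 48 h libraries stand apart, and it rests on that contrast.

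**Figure D3:**
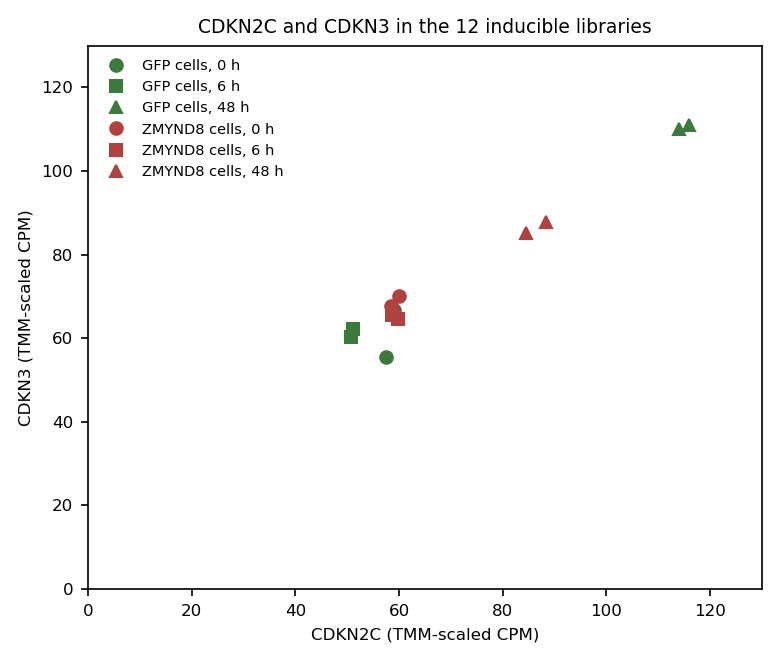
CDKN2C against CDKN3 in the 12 inducible libraries (TMM-scaled CPM on both axes), with the colour giving the line and the shape the hours of doxorubicin. The 8 libraries at 0 and 6 h lie together between 50.8 and 60.0 CPM of CDKN2C, the ZMYND8 libraries at 48 h lie higher, and the GFP libraries at 48 h are the highest for both genes.

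The promoters of the members were read for letters known from cell cycle genes, whatever the pattern of the gene. RefSeq promoters (GRCh38.p14, 250 bases before to 50 after a start) were found for 7 of the 10 members, 12 promoters in all, namely of CCND3, CDK4, CDK6, CDKN1B, CDKN2C, CDKN2D and CDKN3. The search, on both strands, was for the letters TTCCCGC and TTGGCGC, bound by E2F factors, and TTTGAA and TTCGAA of the cell cycle homology region, and none of these 4 overlaps another in the matches found. A match was held by 2 of the 12 promoters, beside 24.6% of all promoters, so that matches were not more frequent among the members. These 2 are shown with the matches in capitals, on the + strand of chr1:50968456-50968755 and chr14:54396757-54397056.
CDKN2C: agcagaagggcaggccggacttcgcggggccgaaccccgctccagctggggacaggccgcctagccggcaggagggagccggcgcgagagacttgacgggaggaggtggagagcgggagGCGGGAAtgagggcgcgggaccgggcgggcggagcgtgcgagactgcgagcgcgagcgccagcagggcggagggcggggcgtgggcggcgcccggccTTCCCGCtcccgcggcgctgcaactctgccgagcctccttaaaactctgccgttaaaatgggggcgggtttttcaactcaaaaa
CDKN3: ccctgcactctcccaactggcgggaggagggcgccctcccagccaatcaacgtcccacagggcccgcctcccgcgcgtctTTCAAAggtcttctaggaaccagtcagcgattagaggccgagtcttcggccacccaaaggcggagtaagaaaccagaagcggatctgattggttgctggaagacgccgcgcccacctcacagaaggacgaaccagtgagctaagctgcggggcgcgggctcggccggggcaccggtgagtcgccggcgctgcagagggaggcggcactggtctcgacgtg

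In the CDKN2C promoter, 1 of the 3 of this gene, TTCCCGC stood 34 bases before the start as printed and 131 bases before it on the opposite strand. In the CDKN3 promoter, TTTGAA stood on the opposite strand 170 bases before the start. Of all 35116 promoters in the table, 6.55% held TTCCCGC, 3.04% TTGGCGC, 15.2% TTTGAA and 1.45% TTCGAA, and 24.6% held at least 1 of these. A match is a description of the letters and not of binding.

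CDKN2D, the other INK4 inhibitor, on chromosome 19 (ENSG00000129355.6, 10566462 to 10569059, - strand), fell at 6 h and was back near its starting level at 48 h. It was at 55.9 and 45.9 CPM at 0 h, 22.6 and 24.4 CPM at 6 h, and 48.9 and 50.9 CPM at 48 h in GFP cells. ZMYND8 cells had 69.6 and 67.1 CPM, 42.2 and 44.8 CPM, and 72.3 and 73.6 CPM. The 6 h libraries were the lowest of each line, and the GFP libraries at 0 and 48 h overlapped. The 6 h value fell by a log2 fold change of -1.12 ± 0.0779 in GFP cells (adjusted p = 2.6e-12) and -0.65 ± 0.0679 in ZMYND8 cells (adjusted p = 1.1e-08). At 48 h it was -0.03 (95% interval -0.17 to 0.11) and 0.09 (-0.03 to 0.22), of which the first was called without the second GFP library at 0 h (-0.17, adjusted p = 0.041). CDKN2D was higher in ZMYND8 cells by 0.42 ± 0.0667 at 0 h, 0.89 ± 0.0794 at 6 h and 0.55 ± 0.064 at 48 h on the log2 scale (adjusted p = 4.1e-06, 2.4e-10 and 3e-08).

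The interaction is the log2 fold change from 0 h in ZMYND8 cells minus that in GFP cells. It tests whether the change from 0 h differed between the lines. As hours of doxorubicin and of doxycycline cannot be told apart, it does not isolate the response to doxorubicin. At 6 h, 3 of 10 members were called (2 higher, 1 lower) beside 13.4% of all genes (7.86% higher, 5.52% lower). The rise of CCND1 was smaller in ZMYND8 cells by -0.39 ± 0.0579 (adjusted p = 2.9e-05), CDK6 differed by 0.52 ± 0.0746 (adjusted p = 1.8e-05) and the dip of CDKN2D was shallower by 0.47 ± 0.104 (adjusted p = 0.0029). At 48 h, 5 of 10 were called (1 higher, 4 lower) beside 28.6% (12.7% higher, 15.8% lower). CCND1 (-0.24 ± 0.0586, adjusted p = 0.0026), CCND3 (-0.39 ± 0.0597, adjusted p = 1.1e-05), CDKN2C (-0.43 ± 0.068, adjusted p = 1.7e-05) and CDKN3 (-0.53 ± 0.0819, adjusted p = 1.2e-05) were lower, and CDK6 (0.63 ± 0.078, adjusted p = 4.4e-07) was higher. These 8 calls held with each single library left out and under each other setting run, except the study's own cutoff of 1.5 on the log2 scale, which none of them reaches. CDKN2D was also called at 48 h without the second GFP library at 0 h (0.26, adjusted p = 0.039). For CDK4 the difference at 48 h was -0.01 (95% interval -0.13 to 0.11), and for CDKN1B 0.17 (0 to 0.34, adjusted p = 0.14). The 6 h and 48 h interactions share the 0 h libraries. ZMYND8 itself had interactions of 1.01 ± 0.0652 at 6 h and 0.64 ± 0.0635 at 48 h, so that its difference between the lines was not constant.

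**Figure D4:**
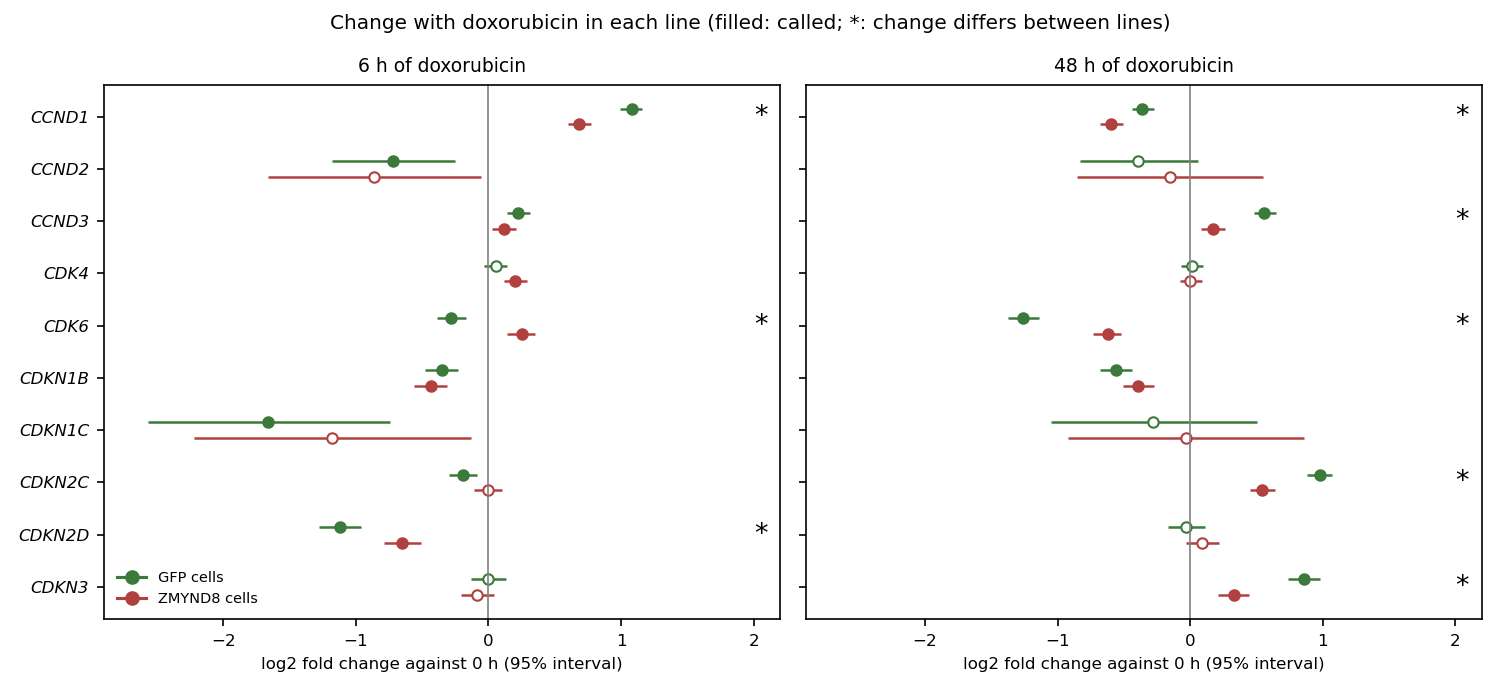
log2 fold change against 0 h (horizontal axis, with 95% intervals) of the 10 genes at 6 h and at 48 h of doxorubicin in GFP cells and ZMYND8 cells, filled where called at an adjusted p of at most 0.05. Asterisks mark the 3 genes at 6 h and the 5 genes at 48 h whose change differed between lines, with CDK6 on opposite sides of 0 at 6 h and above GFP cells at both times.

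Between the lines themselves, 7 of 10 members were called at 0 h (4 higher and 3 lower in ZMYND8 cells), 7 at 6 h (4 higher, 3 lower) and 7 at 48 h (3 higher, 4 lower), beside 58.3%, 55.5% and 60% of all genes. Of all genes, 28.7%, 28.9% and 28.4% were higher and 29.5%, 26.6% and 31.6% lower, and libraries of both lines did not overlap for 76.7%, 74.1% and 80.4%. CCND2 and CCND3 were lower and CDK6 and CDKN2D were higher at each time. The 4 markers of other cell types that were tested were all lower in ZMYND8 cells at each time (summed over 7 markers, 13 to 14.3 CPM against 36.1 to 36.2 CPM at 0 h, 9.76 to 9.93 against 23.5 to 24.6 at 6 h and 13.8 to 15.8 against 43.1 to 45.4 at 48 h), with CD3E at 0 in 3 and CDH5 in 2 of the 6 groups, and their part in these differences was not tested. Most genes measured thus differed between both lines before doxorubicin, and the share of members is close to the background.

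Proliferation markers (MKI67, PCNA, MCM2, TOP2A and CCNB1) moved beside these genes. At 6 h, 2 of 5 rose and 2 fell in GFP cells, beside 47.9% of all genes called. In ZMYND8 cells 2 rose and 3 fell, beside 40.8%. MKI67 fell from 201 to 131 CPM in GFP cells and from 373 to 270 CPM in ZMYND8 cells (adjusted p = 5.7e-10 and 3.9e-08). At 48 h, 4 rose and 1 fell in GFP cells, beside 64.2% of all genes called. In ZMYND8 cells 2 rose and 1 fell, beside 62.3%. The marker that fell was CCNB1, the mitotic cyclin, from 214 to 193 CPM and from 262 to 181 CPM (adjusted p = 0.002 and 6.1e-12). From 0 to 48 h PCNA, a sliding clamp of DNA replication, rose from 195 to 503 CPM in GFP cells (log2 fold change 1.36 ± 0.0422, adjusted p = 3.3e-20) and from 162 to 290 CPM in ZMYND8 cells (0.84 ± 0.0429, adjusted p = 1.6e-15). TOP2A, a topoisomerase of dividing cells and a target of doxorubicin, rose from 480 to 848 CPM in GFP cells (0.82 ± 0.0363, adjusted p = 6.8e-17) and stood at 769 CPM at both times in ZMYND8 cells. All 5 markers had a lower change in ZMYND8 cells at 48 h, with interactions of -0.25 to -0.82. Of the members, CCND1, CCND3, CDKN2C and CDKN3 were called in that direction, and CDK6 in the other. The part of the markers in the values above was not tested.

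The other genes of the G1/S pathway, a list of 36, give the setting. Of these, 34 were tested in the inducible table. At 6 h, 19 rose and 6 fell in GFP cells (73.5% called, beside 47.9% of all genes). In ZMYND8 cells 16 rose and 5 fell (61.8%, beside 40.8%). CDC25A, a phosphatase that activates CDK2, rose most in both (log2 fold change 1.92 ± 0.0603, adjusted p = 4.5e-19, and 1.27 ± 0.0553, adjusted p = 7.3e-16). At 48 h, 18 rose and 7 fell in GFP cells (73.5% called, beside 64.2% of all genes). In ZMYND8 cells 15 rose and 13 fell (82.4%, beside 62.3%). E2F2, an activating E2F, rose most, from 6.27 to 59.6 CPM in GFP cells (3.25 ± 0.104, adjusted p = 6.8e-20) and from 4.49 to 35.6 CPM in ZMYND8 cells (2.98 ± 0.114, adjusted p = 3.5e-18). E2F8, a repressing E2F, followed with 2.59 ± 0.0689 and 1.94 ± 0.0673 (adjusted p = 1.5e-21 and 4.6e-19). GSK3B, a kinase that marks cyclin D1 protein for export and breakdown, fell by -1.36 ± 0.0611 and -1.33 ± 0.0616 (adjusted p = 9.3e-17 and 2.2e-16). In the interaction at 48 h, 19 of the 34 were lower and 2 higher in ZMYND8 cells, beside 15.8% and 12.7% of all genes. The median of the 34 was -0.32 against -0.01 over all genes.

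CDKN1A, the CIP/KIP inhibitor best known as a target of p53, had the largest interaction among the called genes of the list. It went from 110 to 234 and 447 CPM at 6 and 48 h in GFP cells and from 134 to 157 and 259 CPM in ZMYND8 cells. The change was smaller in ZMYND8 cells by -0.85 ± 0.0612 at 6 h and -1.07 ± 0.0594 at 48 h (adjusted p = 3.4e-10 and 3.6e-13). The INK4 genes CDKN2A and CDKN2B were not detected: CDKN2A had 0 counts in all 18 libraries and CDKN2B 1 count in 1 library. A count of 0 allows up to 0.121 to 0.524 CPM at the depths of these libraries (3 counts, counting error only), so CDKN2C and CDKN2D were the INK4 genes measured above 1 CPM here.

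In the transient table fewer genes were called. With 48 h of doxorubicin against control, 2 of 9 members were called at an adjusted p of at most 0.05 (1 higher, 1 lower) beside 5.13% of all genes (2.98% higher, 2.15% lower). For the labelled ZMYND8 libraries against the same control, 3 of 9 were called (2 higher, 1 lower) beside 6.82% (3.85% higher, 2.97% lower). Libraries did not overlap with the control libraries for 6 of 9 members with doxorubicin, beside 50.4% of all genes, and for 7 of 9 in the labelled ZMYND8 libraries, beside 52%. Both comparisons share the control libraries, and their second treated libraries are the nearly alike pair, so that they are not independent of each other. Both were fitted without the replicate number as a block. With that block CCND3 was also called with doxorubicin (adjusted p = 0.022) and CDK6 in the labelled ZMYND8 libraries (adjusted p = 0.026). Between both treated groups 0 of 9 members were called, beside 0% of all 15697 genes with edgeR and 0 genes with DESeq2. The second libraries of these groups are the nearly alike pair and ZMYND8 is not raised, and whether a sample was shared or mislabelled was not tested. With both of these left out, 0 of 9 members were called as well. At an unadjusted p of at most 0.05 no member passed in that comparison, and 54 genes (0.344%) did in all. The widest intervals there were -1.84 to 1.02 for CDKN1C and -0.89 to 0.21 for CDK6 on the log2 scale.

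**Figure D5:**
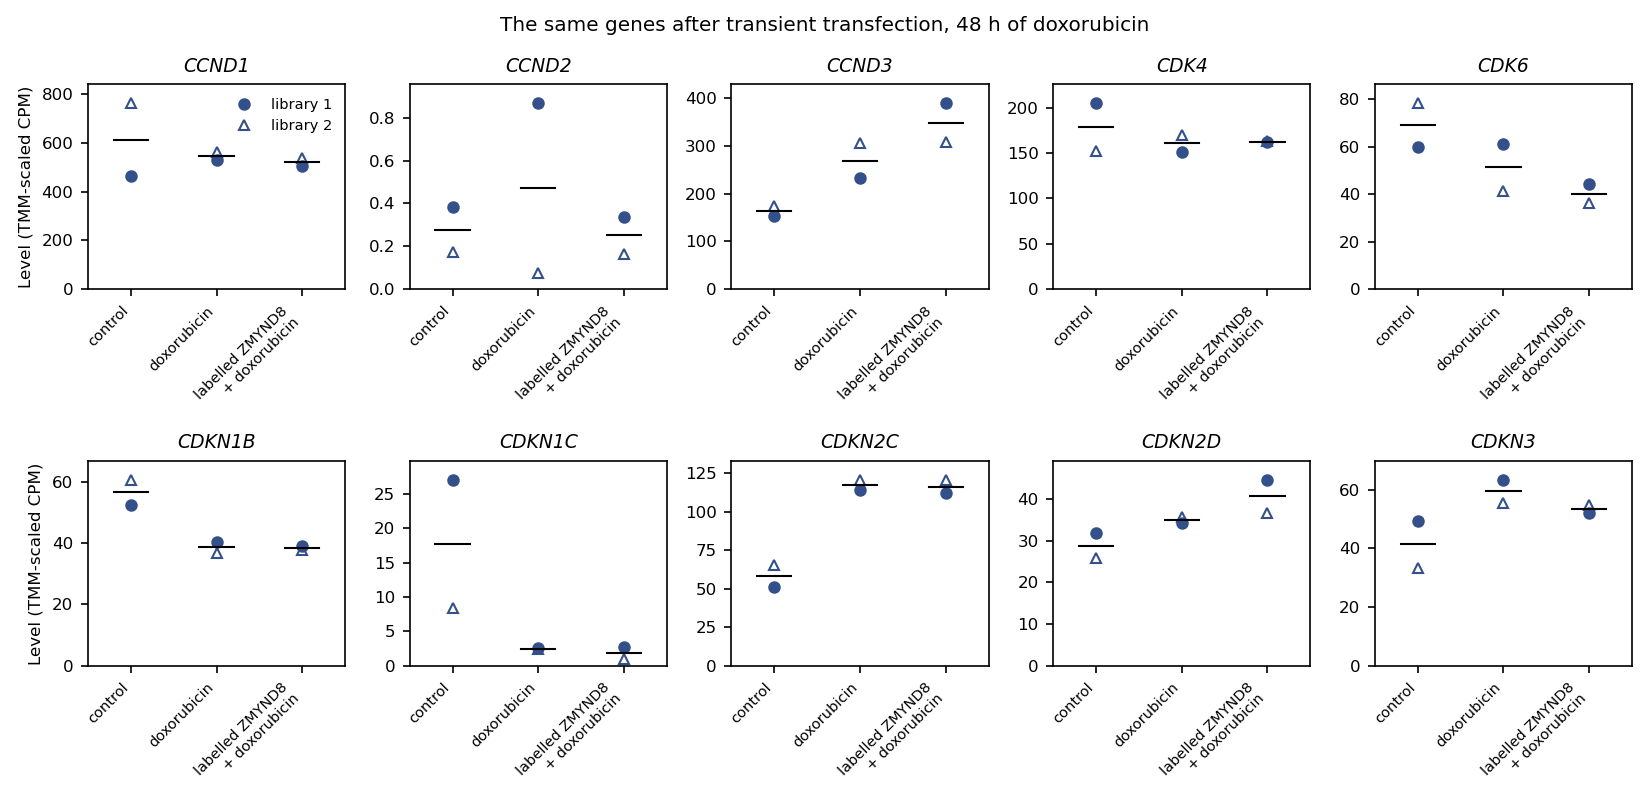
Levels (TMM-scaled CPM, linear axes from 0) of the 10 genes in the 6 transient libraries, filled circles for the first and open triangles for the second library of a group, with bars at the group means. CDKN2C, CCND3, CDKN2D and CDKN3 lie higher and CDKN1C and CDKN1B lower in all 4 treated libraries than in both control libraries. Of these genes, CDKN2C and CDKN1C were called in both comparisons, which share the control libraries. The second libraries of both treated groups were nearly alike, and whether they are separate samples was not tested.

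CDKN2C rose to about the same level in both treated groups, whose second libraries are the nearly alike pair. It was at 51.3 and 65.2 CPM in control cells, 114 and 121 CPM with doxorubicin and 112 and 121 CPM in the labelled ZMYND8 libraries, with no overlap. The log2 fold changes were 1.01 ± 0.2 (adjusted p = 0.019) and 1.00 ± 0.201 (adjusted p = 0.017). The first call was lost without the first control library (0.83, adjusted p = 0.084) or the second doxorubicin library (0.97, adjusted p = 0.13), and narrowly without the first (1.05, adjusted p = 0.05 after rounding). The other was lost without the first control library or without either labelled ZMYND8 library (adjusted p = 0.068 to 0.10).

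CCND3 was at 153 and 173 CPM in control cells, 232 and 305 CPM with doxorubicin, and 389 and 307 CPM in the labelled ZMYND8 libraries. All treated libraries lay above both control libraries. The rise was called for the latter (log2 fold change 1.09 ± 0.224, adjusted p = 0.018), but not without the first control library (0.99, adjusted p = 0.062) or the first labelled ZMYND8 library (0.91, adjusted p = 0.13). With doxorubicin alone the value was 0.72 ± 0.223 (adjusted p = 0.085). With the replicate number as a block it was called (0.72, adjusted p = 0.022), as it was with DESeq2 (0.71, adjusted p = 0.044), with no filter on low counts (0.73, adjusted p = 0.04) and with total-count scaling (0.87, adjusted p = 0.046).

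CDKN1C was at 27.1 and 8.35 CPM in control cells, 2.60 and 2.36 CPM with doxorubicin, and 2.71 and 0.985 CPM in the labelled ZMYND8 libraries, which are 6 to 142 counts. The control libraries lay above the treated ones and differed from each other by more than the treated libraries did. The log2 fold change was -2.84 ± 0.548 (adjusted p = 0.017) and -3.25 ± 0.603 (adjusted p = 0.013). Without the first control library the first of these was -1.78 (adjusted p = 0.093), without the second it was -3.46 (adjusted p = 0.0084), and without the second doxorubicin library it was -2.75 (adjusted p = 0.11). Without the second labelled ZMYND8 library the other was -2.72 (adjusted p = 0.071). It was -2.19 without the first control library, -3.88 without the second and -4.15 without the first labelled ZMYND8 library, each still called (adjusted p = 0.047, 0.0075 and 0.043).

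CDK6 was at 59.9 and 78.3 CPM in control cells, 61.1 and 41.4 CPM with doxorubicin, and 44.1 and 36.3 CPM in the labelled ZMYND8 libraries. The first control library and the first doxorubicin library were at a like level. The log2 fold change was -0.44 ± 0.248 (adjusted p = 0.32) and -0.78 ± 0.252 (adjusted p = 0.085), the latter called with the replicate number as a block (-0.80, adjusted p = 0.026) or with no filter (-0.80, adjusted p = 0.032). CDKN1B was at 52.3 and 60.7 CPM in control cells and 36.8 to 40.5 CPM in the 4 treated libraries, which did not overlap with them (log2 fold change -0.55 ± 0.204, adjusted p = 0.14, and -0.55 ± 0.206, adjusted p = 0.13).

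CCND1, CDKN3, CDKN2D and CDK4 were not called in either comparison. CCND1 was at 464 and 764 CPM in control cells, a spread that holds the 4 treated libraries (505 to 563 CPM). CDKN3 was at 49.2 and 33.4 CPM in control cells, 63.4 and 55.3 CPM with doxorubicin, and 51.9 and 54.8 CPM in the labelled ZMYND8 libraries (0.52, adjusted p = 0.22, and 0.37, adjusted p = 0.36). CDKN2D was at 31.7 and 25.9 CPM in control cells and 34.2 to 44.6 CPM in the treated libraries (0.28, adjusted p = 0.5, and 0.50, adjusted p = 0.2). CDK4 was at 205 and 152 CPM in control cells and 151 to 170 CPM in the treated libraries.

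The transient counts of CDK4 and CCND1 carry a further limit. Of the exon bases of CDK4, 44.2% also lie in exons of TSPAN31 on the opposite strand, and 10.3% of those of CCND1 lie in exons of LTO1. Among genes of which at least 90% lie within the exons of an opposite-strand gene of at least 20 CPM, the median read density was 156% of that gene's in the transient table (387 pairs) and 9.39% in the inducible table (361 pairs). In the transient table reads of opposite strands are thus not separated, and the values of CDK4 and CCND1 there may hold reads of the overlapping gene. CDKN1B, CDKN1C, CDKN2C, CDKN2D and CDKN3 have no such overlap, and CCND2, CCND3 and CDK6 at most 2.26% of their exon bases.

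Of the G1/S list, 33 of 36 genes were tested in the transient table. With doxorubicin 11 rose and 0 fell, beside 2.98% and 2.15% of all genes. In the labelled ZMYND8 libraries 12 rose and 1 (CCNH, a subunit of the CDK-activating kinase) fell, beside 3.85% and 2.97%. E2F2 (log2 fold change 3.12 ± 0.272, adjusted p = 0.0026), CDKN1A (2.09 ± 0.249, adjusted p = 0.0046) and E2F8 (2.00 ± 0.272, adjusted p = 0.0051) rose most with doxorubicin. Between both treated groups 0 of 33 were called. Of the proliferation markers, 4 of 5 rose with doxorubicin and 3 of 5 in the labelled ZMYND8 libraries, with CCNB1 uncalled in both.

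For each member, the genes whose log2 CPM followed it most closely over the 12 inducible libraries are given as a description, out of 11278 genes with a mean of at least 5 CPM. Since these libraries form 6 groups that share their line and time, a high correlation says only that 2 genes have like group means. CCND1 was followed by TTLL12 (Pearson r = 0.992), FRMD6 and ALDH1B1. CCND3 was followed by the DNA polymerase genes POLH and POLE (both r = 0.98) and ABHD6, and CCND2 by KLHDC8B (r = 0.988), TMEM25 and ALAD. CDK6 was followed by TRIM16L (r = 0.99), TMED3 and SLC7A11, and CDK4 by ZNF106 (r = 0.951), WDR45B and FBL. CDKN1B was followed by CDK19 (r = 0.975), SLCO4A1-AS1 and NTHL1, and CDKN1C by ZNF740 (r = 0.887), SMARCD3 and ACSF3. CDKN2C was followed by SYMPK (r = 0.991), ZNF440 and CRABP2, CDKN2D by HIP1 (r = 0.97), CEP43 and SLX4IP, and CDKN3 by the mitotic kinase gene AURKB (r = 0.982), TUBG1 and SMC3.

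At 48 h the choice of scaling moves all genes. Scaled to total counts in place of TMM factors, all genes had a median log2 fold change of 0.27 in GFP cells and 0.25 in ZMYND8 cells at 48 h, and 0.15 and 0.14 in both transient comparisons with control. CDK4 then had 0.26 and 0.21 in GFP and ZMYND8 cells, close to these medians, and CDKN2D had 0.22 and 0.30. CCND1, CDK6 and CDKN1B were still lower at 48 h in both lines under that scaling. CCND3, CDKN2C and CDKN3 were still higher, which a scaling that moves values up could not have changed. Among all genes called, the share that was higher moved from 50.4% to 68.1% in GFP cells and from 50.6% to 66.9% in ZMYND8 cells at 48 h, from 53.5% to 39.7% in ZMYND8 cells at 6 h, and from 58.1% to 78% and 56.5% to 73.8% in the transient comparisons with control. In the interaction at 6 h that share was 58.8% with TMM and 32.2% with total counts, and the same 3 members were called with CCND3 (-0.18, adjusted p = 0.043) added.

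The study's own criterion was an unadjusted p of at most 0.05 with a log2 cutoff of 1 in the transient and 1.5 in the inducible table. Only its cutoffs were taken over and applied to the edgeR values, whereas the study's methods name cuffdiff. By this criterion 2 members were called with doxorubicin against control (CDKN1C and CDKN2C) beside 8.7% of all genes. It called 3 in the labelled ZMYND8 libraries against control (those and CCND3) beside 9.84%, and 0 between both treated groups beside 0.159%. In GFP cells it called 1 member at 6 h (CDKN1C) beside 4.71% and 0 at 48 h beside 13.2%. In ZMYND8 cells it called 0 at 6 h beside 2.73% and 0 at 48 h beside 12.4%. Between the lines CCND2 was the 1 member called at each of 0, 6 and 48 h, beside 11.4%, 10.6% and 9.44%, and the interactions held 0 members at both times beside 2.01% and 3.7%.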

How the data were processed

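RNA-seq libraries of poly(A) RNA were made in 2 biological replicates per condition, per the labels, and as nothing says that these were separate cultures, p-values measure the spread between these libraries. What the authors deposited are unnormalised counts, summed over the exons of each gene. According to the headers they ran featureCounts 1.6.4 in paired mode with the reverse-stranded setting on GENCODE release 31. The submitters' processing notes name Trim Galore, HISAT2, DESeq2 and hg38, whereas the study's methods name TopHat and cuffdiff, and the file headers do not settle which alignments were counted. Replicates were not pooled. The gene length that the authors deposited beside the counts was used for RPKM.

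Symbols were matched by gene ID (60261 of 60603 genes). Each table was fitted separately with edgeR 4.0.16 (R 4.3.3), using TMM factors, its filter by expression (15697 and 18801 genes left), 1 mean per group and the quasi-likelihood test, adjusted by Benjamini-Hochberg over all genes tested. The standard error (SE) is the log2 fold change over the square root of F, and intervals are 95%. DESeq2 1.42.0, other scalings and filters, the replicate number as a block, the study's criterion (unadjusted p of 0.05 with a log2 cutoff of 1 or 1.5) and left-out libraries were alternatives. Simulated counts with known changes were used to test the fit. No exact permutation test was used, since 0.333 is the smallest two-sided p that 2 libraries against 2 allow.

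Replicate numbers were checked for pairing. In the transient table the deviations of same-numbered libraries from their group means correlated at 0.21 to 0.40 in all 3 pairs of groups. The highest value was between both treated groups, which hold the nearly alike second libraries. Same-numbered transient libraries thus deviated alike, while the reported transient calls come from the fit without the replicate number as a block. In the inducible table the values were -0.05 to 0.02 in 15 pairs.

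The members and gene lists were chosen with earlier results of these data known. Named were the 10 members, from the G1/S list the largest called changes of a comparison (up to 3 rises and 3 falls eligible), the proliferation and cell type markers, ZMYND8, and the 3 genes closest in pattern to each member. Proteins were not compared here.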

Additional observations from a re-analysis of the deposited data

Results flagged for a closer look

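The change with doxorubicin differed between ZMYND8 cells and GFP cells by a test of the difference itself in 8 cases. At 6 h these were CCND1 (log2 difference -0.39, with 1173 CPM in GFP and 1091 CPM in ZMYND8 cells), CDK6 (0.52, with 98.9 and 164 CPM) and CDKN2D (0.47, with 23.5 and 43.5 CPM). At 48 h these were CCND1 (-0.24, with 434 and 448 CPM), CCND3 (-0.39, with 280 and 152 CPM), CDK6 (0.63, with 50.1 and 89.8 CPM), CDKN2C (-0.43, with 115 and 86.4 CPM) and CDKN3 (-0.53, with 111 and 86.4 CPM). At 0 h GFP and ZMYND8 cells held 556 and 679 CPM of CCND1, and 120 and 139 CPM of CDK6. For CDKN2D these were 50.9 and 68.4 CPM, and for CCND3 190 and 135 CPM. CDKN2C was then at 58.3 and 59.2 CPM, and CDKN3 at 61.2 and 68.9 CPM. Between the lines CCND1 was called at 0 h (log2 fold change 0.29) and not at 48 h (0.05). Each line is 1 line per construct, so that ZMYND8 and other differences between the lines cannot be told apart. Hours of doxorubicin and hours of doxycycline cannot be told apart either. No group has more than 2 libraries, so none could be searched for a library far from the rest.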

How the results depend on the processing

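In the inducible table, 606 of 633 recomputed values of called member changes kept direction and call, 27 lost the call and none changed sign, the study's criterion aside. Of 53 such values in the transient table, 40 kept both and 13 lost the call, none with a change of sign. The cause of each loss was not tested, except that leaving out libraries leaves fewer to test. CCND2 and CDKN1C had the fewest counts, 1 to 105 and 6 to 142 per library.

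With doxorubicin against control, 2 members were called in the transient table, 1 with at least 10 counts in every library (where CDKN1C was not tested), 1 without the second libraries of both treated groups, and 0 to 2 with a single library left out. The labelled ZMYND8 libraries had 3, and 1 to 3 with a library left out. By the study's criterion the inducible comparisons had 1 member (GFP cells, 6 h), 0 (GFP cells, 48 h), 0 (ZMYND8 cells, 6 h), 0 (ZMYND8 cells, 48 h), 1, 1 and 1 (ZMYND8 against GFP cells, 0, 6 and 48 h), and 0 and 0 (interactions).

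Of values not called as reported, 17 of 428 in the inducible and 6 of 241 in the transient table gained a call, and 28 and 12 changed sign. No called value changed sign. With total counts CDK4 was at 0.01 (labelled ZMYND8 libraries against control), CDKN1B at 0.03 (between lines, 0 h), CDKN2D at 0.22 (GFP cells, 48 h), and CCND2 at 0.05 and CDKN1C at 0.17 (ZMYND8 cells, 48 h). With no filter CDK4 was at -0.02 (between transient treated groups) and -0.01 (GFP cells, 48 h). CDKN2D in GFP cells at 48 h was at 0.01 with relative log expression factors, 0.05 with at least 10 counts and 0.01 with DESeq2. CDKN1C was at 0.07 with at least 10 counts (ZMYND8 cells, 48 h) and 0.03 without the second treated libraries (between transient treated groups).

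With single libraries left out, values ranged as follows. Transient, doxorubicin against control: CCND1 -0.50 to 0.23, CDK4 -0.36 to 0.06. Labelled ZMYND8 libraries against control: CCND1 -0.57 to 0.17, CDK4 -0.34 to 0.08. Between treated groups: CDK4 -0.07 to 0.09, CDKN1C -1.31 to 0.12, CDKN2C -0.09 to 0.04. GFP cells, 48 h: CDK4 -0.05 to 0.06, CDKN1C -1.10 to 0.24, CDKN2D -0.17 to 0.11. ZMYND8 cells, 48 h: CCND2 -0.37 to 0.11, CDKN1C -0.66 to 0.83. Between lines: CDKN1B -0.05 to 0.03 at 0 h, CDKN1C -1.23 to 0.10 at 48 h. Interaction, 6 h: CCND2 -0.52 to 0.15, CDKN1C -0.13 to 1.36, CDKN3 -0.22 to 0.04. Interaction, 48 h: CDK4 -0.07 to 0.05, CDKN1C -0.37 to 1.12, CDKN2D -0.02 to 0.26.

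With the replicate number as a block, 3 and 4 members were called in the transient comparisons with control (CCND3 and CDK6 added). In the inducible table, where the numbers share nothing but the number, no call changed and CDKN1C in ZMYND8 cells at 48 h was at 0.03.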
